A study of Mus musculus with 4 samples.

Results

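Genes of the protein C pathway, of tissue factor and of plasminogen activation were followed across 4 dishes of mouse synovial fibroblasts, each measured on 1 Affymetrix array. Probe sets were taken whose annotated symbol is exactly Procr, Thbd, F3, Tfpi, Plau, Plaur, Plat, Serpinb2 or Serpine2. Of these 9 genes, 8 had such a probe set, with 11 probe sets in all, out of 12393 genes and 22690 probe sets on the arrays. Serpine2 is not analysed here. Naive male DBA/1J mice aged 8 to 12 weeks were the source; the cells were taken from their knees and passaged 3 to 4 times before use. How many mice contributed, and whether their cells were pooled, is not given in the sources used here. For 6 h in medium with 1% serum, 1 dish each received IL-1β at 5 ng/ml with indomethacin at 1 µM and iloprost at 1 µM, IL-1β with indomethacin, IL-1β alone, or vehicle. All doses and the time were the same wherever an agent was given.

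IL-1β is an inflammatory cytokine of the joint. It induces the cells' own prostanoids, which indomethacin prevents by blocking the cyclooxygenases, and iloprost, a stable analogue of prostacyclin, acts on the prostacyclin receptor. On cell surfaces the protein C receptor, encoded by Procr, holds protein C near thrombin bound to thrombomodulin, encoded by Thbd, where protein C is activated into an anticoagulant protease. Tissue factor, encoded by F3, starts coagulation with factor VII, and the Tfpi product inhibits that step. Urokinase (Plau), its receptor (Plaur) and tissue plasminogen activator (Plat) serve to make plasmin, which dissolves fibrin and cleaves matrix, and the serpin encoded by Serpinb2 inhibits both activators.

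The sequences just before the annotated starts are shown for the members at least 2-fold apart between 2 dishes for which the RefSeq promoter table (build GRCm38.p6) has an entry, with 250 bases 5′ to 3′ on the gene's own strand. They lie at chr2:155750967-155751216 on the plus strand for Procr, chr3:121723287-121723536 plus for F3, chr7:24462233-24462482 plus for Plaur and chr1:107511173-107511422 plus for Serpinb2, the first of 2 listed starts of that gene. Entries matched 5 of the 8 genes, and Thbd, Plau and Plat had none. Capitals mark matches, on either strand, to the AP-1 motif TGANTCA, the cAMP response element TGACGTCA, its shorter form TGACG, the TATA box TATAAA, the Nr4a element AAAGGTCA and the NF-κB motif.
Procr: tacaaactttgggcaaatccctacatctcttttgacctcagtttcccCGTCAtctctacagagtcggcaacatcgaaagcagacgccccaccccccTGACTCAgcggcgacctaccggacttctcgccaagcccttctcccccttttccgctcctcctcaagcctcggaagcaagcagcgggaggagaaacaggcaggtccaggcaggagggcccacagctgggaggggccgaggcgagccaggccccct
F3: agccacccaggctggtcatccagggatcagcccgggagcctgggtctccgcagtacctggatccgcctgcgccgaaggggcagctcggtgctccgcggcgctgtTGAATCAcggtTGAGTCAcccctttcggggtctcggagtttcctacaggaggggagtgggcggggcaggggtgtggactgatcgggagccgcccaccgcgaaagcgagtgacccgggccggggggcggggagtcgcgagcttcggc
Plaur: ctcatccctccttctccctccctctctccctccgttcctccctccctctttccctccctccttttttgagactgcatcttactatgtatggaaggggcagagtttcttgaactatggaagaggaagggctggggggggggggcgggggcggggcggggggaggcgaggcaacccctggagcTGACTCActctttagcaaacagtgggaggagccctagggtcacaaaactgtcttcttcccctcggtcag
Serpinb2: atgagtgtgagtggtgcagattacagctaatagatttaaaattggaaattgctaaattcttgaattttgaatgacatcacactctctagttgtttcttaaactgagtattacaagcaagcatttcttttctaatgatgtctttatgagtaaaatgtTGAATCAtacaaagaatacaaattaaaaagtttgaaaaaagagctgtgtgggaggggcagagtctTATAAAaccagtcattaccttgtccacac

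Each of these 4 windows held at least 1 AP-1 match, and F3 held 2, at 129 to 135 and 140 to 146 bases before its start. Such a match was present in 6.75% of all 32851 promoter windows of that length. Procr alone among the 4 had a short cAMP response element, 199 to 203 bases before its start, a match found in 17.8% of windows. Serpinb2 had a TATA box 24 to 29 bases before its first listed start, which is 111 to 116 bases before its second. Such a match was found in 12.4% of windows. The full cAMP response element (1.55% of windows), the Nr4a element (1.34%) and the NF-κB motif (7.25%) had no match in these 4, and no matches overlapped. The Tfpi windows, from 2 listed starts, held no AP-1 match. These letters describe the windows and are not evidence of binding.

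The arrays were not equally bright. The median gene of those above the floor on every array had a signal of 172.6 with IL-1β, indomethacin and iloprost, 171.6 with IL-1β and indomethacin, 190.0 with IL-1β and 162.5 with vehicle. Ratios below are therefore log2 ratios relative to that median gene, and signals are as deposited. The floor, a signal of 37.6, is the 50th percentile of all values. A gene at the floor on 1 array has a ratio that is only a bound. With 1 array per treatment there is no replicate spread and no test, and the values describe these 4 dishes. Between probe sets of the same gene, the ratios had an SD per probe set of 0.20 to 0.22 depending on the comparison, which measures noise within the arrays and not between dishes.

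The cultures were checked for the cell types that could carry these genes. All 15 fibroblast markers and all 16 macrophage markers were above the floor on all 4 arrays. The fibroblast signals summed to 36518 with iloprost, 33706 with IL-1β and indomethacin, 36681 with IL-1β and 33892 with vehicle. The macrophage sums were 32457, 34979, 40949 and 35914 in the same dishes. Among fibroblast markers only Pdpn passed 2-fold in a comparison, at 1.42 with iloprost over vehicle, where 2.72% of all genes were higher. Its ratios were 0.78 for IL-1β over vehicle, -0.35 for indomethacin against IL-1β and 0.99 for iloprost over indomethacin. Single macrophage markers did not move as 1. With iloprost over IL-1β and indomethacin, where Procr and Thbd were higher and F3 and Serpinb2 lower, the 16 ratios had a median of -0.21. The Fc receptor gene Fcgr1 was the 1 past 2-fold, with signals of 269.0 with iloprost and 737.9 with IL-1β and indomethacin (-1.46). Of all genes 3.19% were at least 2-fold lower in that comparison. Adgre1 stood at -0.77, Cybb at -0.75, Aif1 at -0.74 and C1qa at -0.62, against 0.62 for Cd14 and -0.09 for Lyz2. With IL-1β over vehicle and with indomethacin against IL-1β, 0 of 16 passed 2-fold, and the medians were -0.10 and -0.03. Of all genes 1.72% were higher and 0.56% lower in the first, and 0.245% and 0.664% in the second. Against vehicle, 3 of the 16 were at least 2-fold lower with iloprost (Adgre1, Cybb and Fcgr1), where 3.34% of all genes were. Of 12 defining endothelial markers, 11 were at the floor on all 4 arrays, including Pecam1, Cdh5 and Tek, and the other, Flt1, reached at most 60.1. The summed endothelial signal was 84.2 with iloprost, 115.7 with indomethacin, 116.2 with IL-1β and 92.4 with vehicle. Of 6 platelet markers Gp1bb, Gp9 and Treml1 were at the floor on all arrays, while Pf4 had signals from 1117 to 1818. Ppbp measured 84.1 with iloprost, 36.6 with indomethacin, 69.2 with IL-1β and 32.0 with vehicle, high in the same dishes as Procr and Thbd below. Its ratio was at least 1.15 for iloprost over indomethacin and at least 1.07 for iloprost over vehicle. Of all genes 1.98% and 2.72% were at least 2-fold higher there. Itga2b measured 40.0, 30.8, 32.5 and 40.3 in the same order of dishes. The 5 mast cell markers and the 5 measured lymphocyte markers were at the floor on all 4 arrays, as were 4 of 5 chondrocyte markers and 3 of 6 of smooth muscle and pericytes. The chondrocyte marker Comp had signals from 372.2 to 387.0. In the smooth muscle list Acta2 ran from 2242 to 2372 and Tagln from 1051 to 1144. Cnn1 measured 53.5 with iloprost, 34.6 with indomethacin, 45.9 with IL-1β and 75.4 with vehicle. The part of macrophages in the results below was not tested, and in whole dishes fewer cells of a type and less RNA per cell cannot be told apart.

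**Figure D1:**
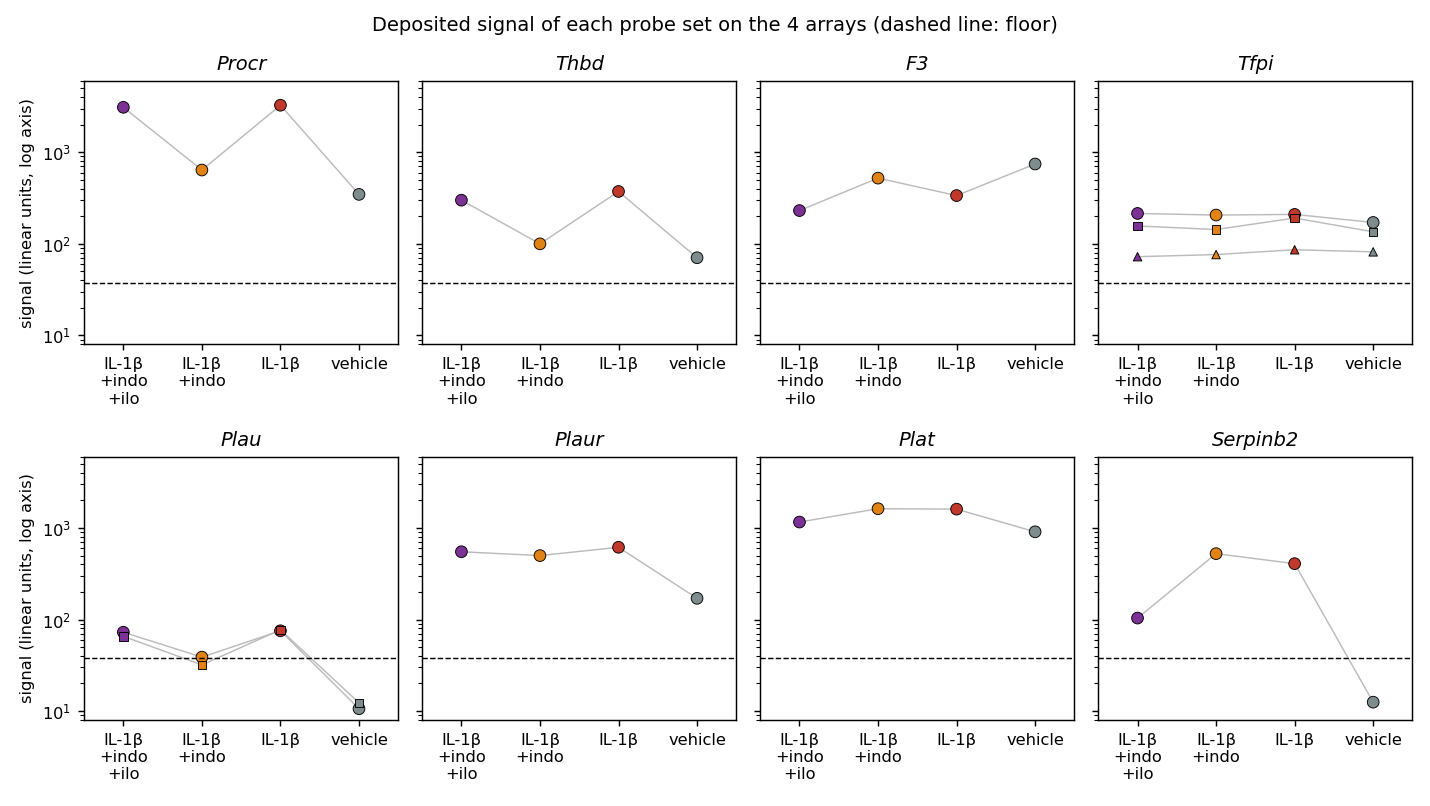
Deposited signal (linear units on a log axis) of each probe set of the 8 genes with IL-1β, indomethacin (indo) and iloprost (ilo), with IL-1β and indomethacin, with IL-1β and with vehicle; circles are the probe set that stands for the gene, squares and triangles its other probe sets, and the dashed line is the floor at 37.6. Procr and Thbd are high in the IL-1β and iloprost dishes, highest with IL-1β, and low in the other dishes. F3 is low in the IL-1β and iloprost dishes, lowest with iloprost, and high in the others. Serpinb2 is low with vehicle and intermediate with iloprost.

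The protein C receptor gene Procr showed the widest range of the members measured above the floor on every array. Its signal was 3097 with IL-1β, indomethacin and iloprost, 639.8 with IL-1β and indomethacin, 3264 with IL-1β alone and 346.6 with vehicle. The dishes with IL-1β alone and with iloprost thus stood together at the top, and the indomethacin dish lay nearer to vehicle than to either. IL-1β over vehicle gave a log2 ratio of 3.01, or 8.06-fold, which ranked 5 from the top of 6431 genes above the floor on both arrays. Indomethacin with IL-1β was 4.61-fold lower than IL-1β alone (-2.20), rank 3 from the bottom of 6501. With iloprost added to these the level was 4.81-fold higher (2.27), rank 6 from the top of 6414. Iloprost against IL-1β alone left a ratio of 0.06, smaller than the noise between probe sets. Against vehicle, the iloprost dish stood at 3.07 and the indomethacin dish at 0.81. The single probe set, 1420664_s_at, carries the suffix that the manufacturer gives to sets whose probes match more than 1 transcript.

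Thbd, which encodes thrombomodulin, the partner of the protein C receptor, had the same order of dishes. It measured 299.7 with iloprost, 99.9 with IL-1β and indomethacin, 373.0 with IL-1β and 70.4 with vehicle. As with Procr, the IL-1β and iloprost dishes were high and the other pair low, with the IL-1β dish slightly above the iloprost dish. The ratio of IL-1β over vehicle was 2.18, or 4.53-fold, rank 15 from the top. Under indomethacin it was -1.75 against IL-1β alone, 3.37-fold lower and rank 8 from the bottom. Adding iloprost gave 1.58 over IL-1β and indomethacin, 2.98-fold higher and rank 32 from the top. The iloprost dish differed from IL-1β alone by -0.18, within the noise between probe sets. Indomethacin with IL-1β stood at 0.43 over vehicle.

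F3, the tissue factor gene that starts coagulation, had the high and the low pair of dishes the other way round. Its signal was 230.7 with iloprost, 521.9 with IL-1β and indomethacin, 336.4 with IL-1β and 744.4 with vehicle. Vehicle was the highest dish and iloprost the lowest, with indomethacin above IL-1β alone. IL-1β over vehicle gave -1.37, 2.59-fold lower and rank 4 from the bottom of 6431 genes. The indomethacin dish was 1.72-fold above IL-1β alone (0.78), rank 39 from the top of 6501 and short of 2-fold. The ratio with iloprost was -1.19 against IL-1β and indomethacin, 2.28-fold lower and rank 151 from the bottom of 6414. Against IL-1β alone the iloprost dish was at -0.41 and against vehicle at -1.78, while the indomethacin dish stood at -0.59 against vehicle.

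Tfpi, the inhibitor of the tissue factor step, was nearly flat. Its brightest probe set measured 214.6 with iloprost, 206.1 with IL-1β and indomethacin, 209.5 with IL-1β and 171.1 with vehicle. The largest of the 6 ratios of that probe set was 0.24, for iloprost over vehicle, and the ratio of IL-1β over vehicle was 0.07. The other probe sets gave 0.27 and -0.15 for that comparison, so their signs differed. With indomethacin against IL-1β the 3 probe sets were at 0.12, -0.27 and -0.03. These values lay at or near the noise between probe sets.

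The fibrinolytic genes did not share 1 pattern. Plau, the urokinase gene, was close to the floor. Its signal was 72.6 with iloprost, 38.8 with IL-1β and indomethacin, 75.3 with IL-1β and 10.6 with vehicle, the last below the floor. The second Plau probe set followed with 65.5, 31.9, 77.2 and 12.3 in the same dishes. Both probe sets were highest with IL-1β and with iloprost, as Procr and Thbd were. IL-1β over vehicle had a bound of at least 0.78, or 1.71-fold. On the scale as deposited that bound was 1.00, past 2-fold. A lower floor, at the 25th percentile, left both arrays above it and gave a ratio of 2.62. Indomethacin stood at -0.81 against IL-1β (1.75-fold lower) and iloprost at 0.90 over IL-1β and indomethacin (1.86-fold higher), both short of 2-fold. Against vehicle the bound for the indomethacin dish gave no direction, while the lower floor gave 1.81 and a setting with no floor, log2 of the signal plus 16, gave 1.01, both past 2-fold and higher.

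Plaur, the gene of the urokinase receptor, was higher than with vehicle in each dish that received IL-1β. The signals were 549.6 with iloprost, 499.0 with IL-1β and indomethacin, 615.0 with IL-1β and 170.4 with vehicle. The 3 dishes with IL-1β lay together, well above vehicle. Over vehicle the ratios were 1.60 with iloprost, 1.47 with indomethacin and 1.63 with IL-1β alone, the last a 3.09-fold difference and rank 39 from the top. Between the dishes with IL-1β they were -0.15 for indomethacin, 0.13 for iloprost over indomethacin and -0.02 for iloprost over IL-1β alone, all within the noise between probe sets.

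The tissue plasminogen activator gene Plat varied by less than 2-fold. It measured 1161 with iloprost, 1623 with IL-1β and indomethacin, 1606 with IL-1β and 908.2 with vehicle. The dishes with IL-1β and with indomethacin were level and highest, and the iloprost dish lay between them and vehicle. IL-1β over vehicle was 0.60, or 1.51-fold, and indomethacin against IL-1β 0.16. Iloprost against IL-1β and indomethacin was at -0.49, 1.41-fold lower. Indomethacin with IL-1β over vehicle, at 0.76 or 1.69-fold, was its largest ratio.

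Serpinb2, the serpin that inhibits urokinase and tissue plasminogen activator, was the member in which iloprost and the IL-1β dish parted most. Its signal was 103.7 with iloprost, 524.1 with IL-1β and indomethacin, 407.5 with IL-1β and 12.5, below the floor, with vehicle. The indomethacin dish was the highest and the iloprost dish the lowest of those with IL-1β. Over vehicle the level was at least 9.27-fold higher with IL-1β (3.21), at least 13.2-fold with indomethacin (3.72) and at least 2.60-fold with iloprost (1.38). This last bound was 0.17 with the floor at the 65th percentile. Indomethacin against IL-1β stood at 0.51, or 1.42-fold. Iloprost was 5.08-fold lower than IL-1β and indomethacin (-2.35), rank 27 from the bottom of 6414, and 3.57-fold lower than IL-1β alone (-1.84), rank 41 from the bottom of 6579.

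**Figure D2:**
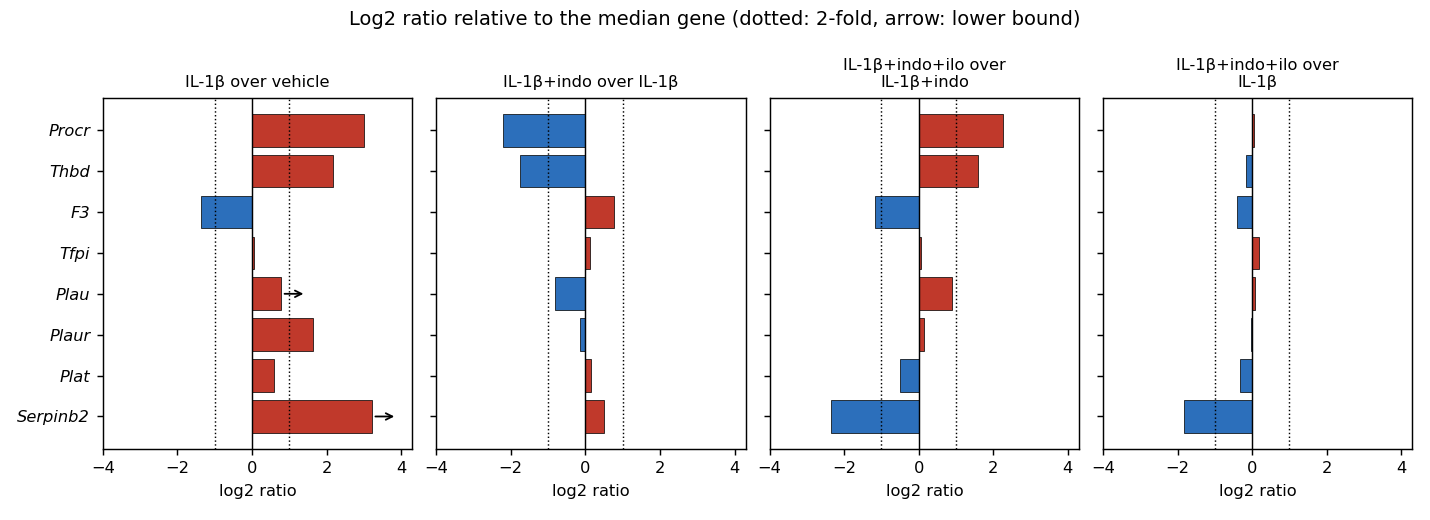
Log2 ratio of each of the 8 genes relative to the median gene (horizontal axis) in 4 comparisons, with dotted lines at a 2-fold difference and arrows where the bar is a lower bound. In the third panel Procr (2.27) and Thbd (1.58) extend to the right and F3 (-1.19) and Serpinb2 (-2.35) to the left, and in the last panel Serpinb2 (-1.84) is the only bar past 2-fold.

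Counted together at a 2-fold difference, 4 of the 8 genes were higher in the IL-1β dish than with vehicle (Procr, Thbd, Plaur and Serpinb2) and 1 was lower (F3). Of all 6964 genes with a ratio, 1.72% were higher and 0.56% lower, or 2.80% and 0.158% on the scale as deposited, where Plau joined them and 5 of the 8 were higher and 1 lower. The median of the 8 genes was 1.20, with 2 bounds among them, against -0.02 over all genes. The members were chosen with earlier results of these data known, so setting them against all genes is not a test. With indomethacin against IL-1β, 0 were higher and 2 were lower (Procr and Thbd). Over all 6932 genes the shares were 0.245% and 0.664%, or 0.130% and 0.866% as deposited, with the same 2 lower and 0 higher, and the medians were -0.02 for the 8 genes and 0.00 for all.

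With iloprost over IL-1β and indomethacin 2 were higher (Procr and Thbd) and 2 lower (F3 and Serpinb2), where 1.98% and 3.19% of 6986 genes were. The median was 0.09, against 0.04 over all genes. Iloprost over IL-1β alone left 0 higher and 1 lower (Serpinb2), where 0.95% and 2.37% of 7050 genes were higher and lower, or 0.624% and 3.12% as deposited, with the counts unchanged at 0 and 1. The medians there were -0.10 and 0.03. Relative to vehicle, the iloprost dish had 4 higher and 1 lower, the same genes as IL-1β alone at this floor and scaling, and the indomethacin dish had 2 higher (Plaur and Serpinb2) and 0 lower. The shares of all genes were 2.72% and 3.34% for iloprost over vehicle and 1.32% and 0.323% for indomethacin over vehicle. The medians were 1.12 with iloprost, against 0.02 over all genes, and 0.59 with indomethacin, against -0.02. At a 1.5-fold threshold F3 was also counted as higher with indomethacin than with IL-1β alone, where 1.64% of all genes were, and as lower with indomethacin than with vehicle, where 2.85% were. At that threshold 4 genes were higher with indomethacin than with vehicle (Procr, Plaur, Plat and Serpinb2), where 3.47% of all genes were. As deposited, IL-1β over vehicle also took in Plau and iloprost over vehicle did not. On that scale 2.80% of all genes were higher with IL-1β than with vehicle and 3.15% with iloprost than with vehicle. With the floor at the 65th percentile, iloprost over vehicle counted 3 genes as higher, without Serpinb2, and IL-1β over vehicle 4. At that floor 2.30% and 1.498% of all genes were higher, in the same order. These comparisons share arrays, so their ratios are not independent of each other.

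**Figure D3:**
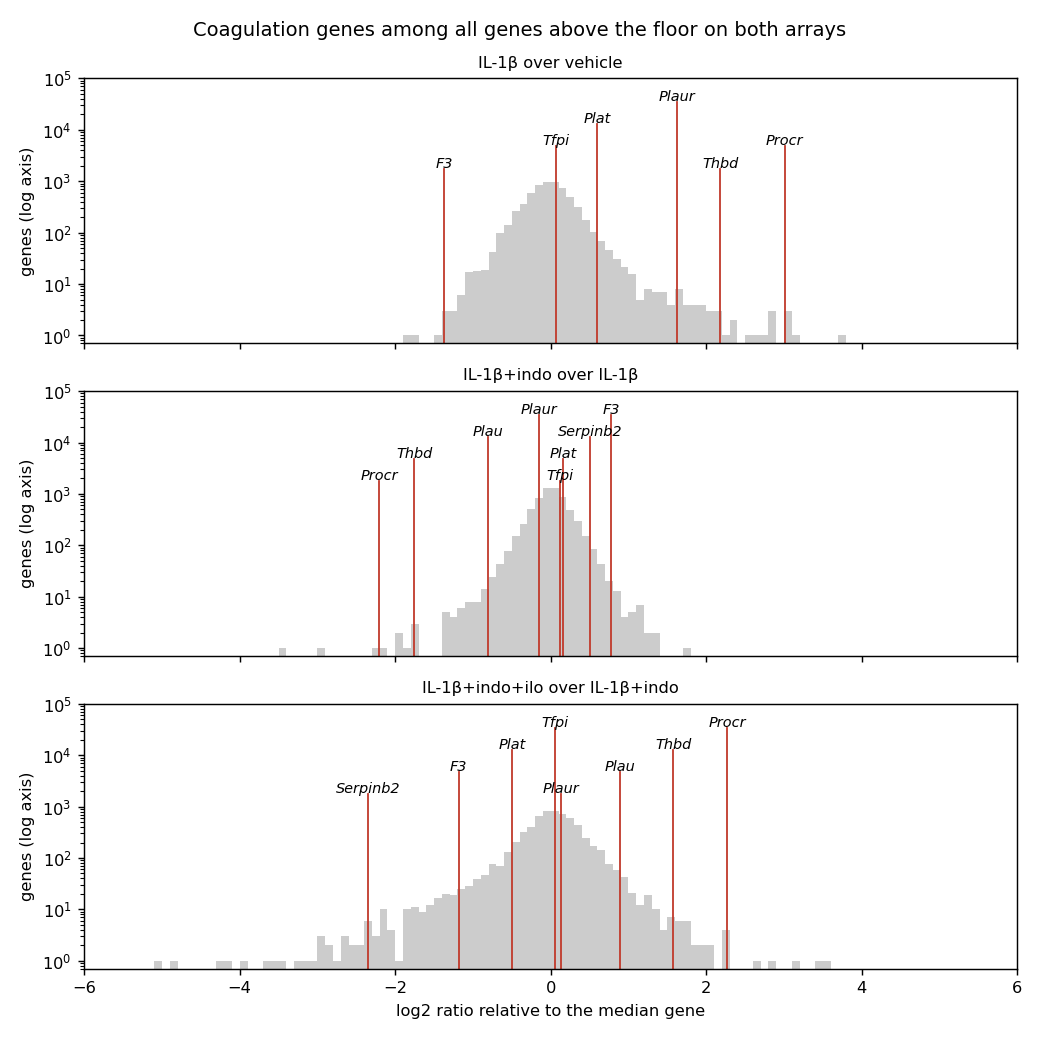
Histograms of the log2 ratio relative to the median gene (horizontal axis) over all genes above the floor on both arrays, with the number of genes on a log axis, in 3 comparisons; red lines mark the genes described here that were above the floor on both arrays. Procr and Thbd lie in the right tail with IL-1β (3.01 and 2.18), in the left tail with indomethacin (-2.20 and -1.75) and in the right tail with iloprost (2.27 and 1.58), while Tfpi stays near 0 in each.

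Profiles over the 4 arrays were compared by Euclidean distance on the log2 scale, after each gene's mean was removed, among 6222 genes above the floor on every array. The genes nearest to Thbd were Kcne4, a potassium channel subunit, at 0.16, the alarmin Il33 at 0.37 and the secreted kinase Pkdcc at 0.45, and Procr ranked 21 of 6221 from it. Procr was nearest to Kcne4 at 0.67, Pkdcc at 0.72 and the enkephalin gene Penk at 0.76, and Thbd came next in rank 4 of 6221 at 0.82. Nearest to F3 were Casp12, an inflammatory caspase family member, at 0.11, the transcription factor gene Irf1 at 0.22 and Tmem140 at 0.27. Irf1 had signals of 214.1 with iloprost, 507.1 with indomethacin, 334.3 with IL-1β and 605.1 with vehicle, the same order of dishes as F3. Plaur lay nearest to the zinc transporter Slc39a14 and the phosphate transporter Slc20a1, both at 0.14, and to the cytokine signal inhibitor Socs3 at 0.21. Procr ranked 6218 of 6221 from F3, at a distance of 4.05. The distance grows with the size of a gene's changes as well as with their direction. Plaur, level among the dishes with IL-1β, ranked 59 of 6221 from Procr. With 4 arrays these distances are descriptions only.

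**Figure D4:**
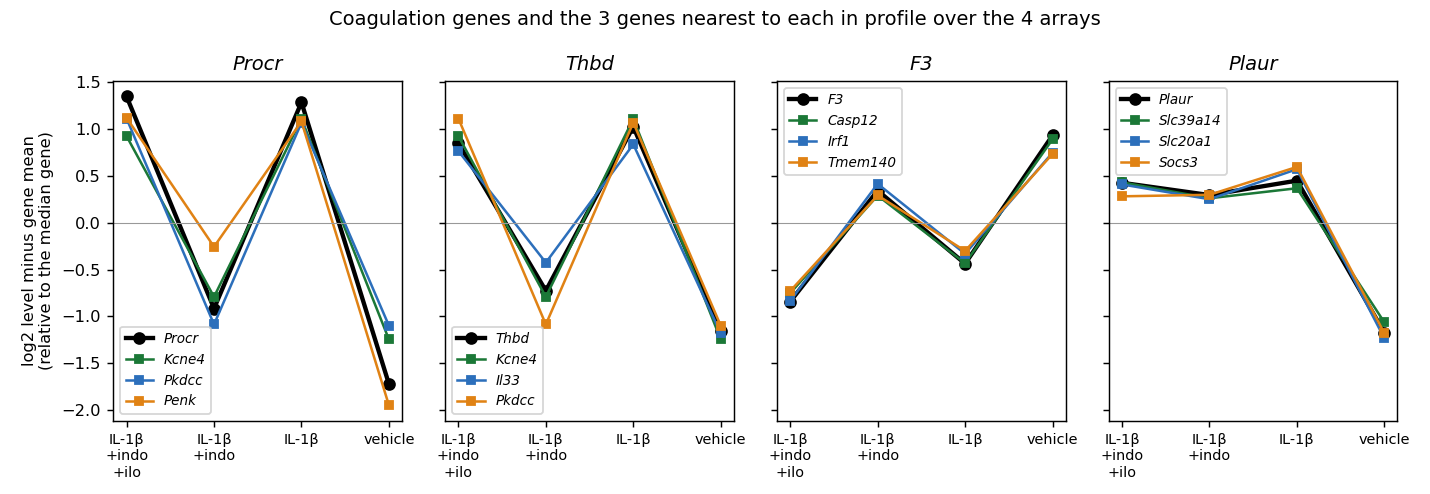
Log2 level minus the gene's mean over the 4 arrays (vertical axis) for Procr, Thbd, F3 and Plaur in black, each with the 3 genes nearest in profile in colour, by treatment. The Thbd and Kcne4 lines run almost together (distance 0.16), as do those of F3 and Casp12 (0.11), while the 3 neighbours of Procr are farther from it (0.67 to 0.76).

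The rest of the pathway was read from 4 lists with 56 genes, of which 53 had a probe set. The others are not analysed here. Of the 53, 28 were at the floor on all arrays, among them Proc, which encodes protein C itself, the prothrombin gene F2, the fibrinogen genes Fga, Fgb and Fgg, and Plg, which encodes plasminogen. By list, 3 of 19 coagulation factor genes with a probe set had a ratio for IL-1β over vehicle (median 0.06), as did 5 of 12 coagulation inhibitors (-0.03), 8 of 12 plasminogen system genes (0.03) and 8 of 10 receptor genes (0.21). IL-1β over vehicle gave 24 list genes with a ratio, of which 1 was at least 2-fold higher and 0 lower, where 1.72% and 0.56% of all genes were. The median was 0.06, against -0.02 over all genes. That gene was Mmp3, a metalloproteinase whose proenzyme plasmin can activate, with signals of 2415 with iloprost, 3520 with IL-1β and indomethacin, 3891 with IL-1β and 958.6 with vehicle. Its ratio was 1.80 with IL-1β over vehicle, 0.00 with indomethacin against IL-1β and -0.55 for iloprost over indomethacin. With indomethacin against IL-1β, and with iloprost over indomethacin, 0 of 24 list genes passed 2-fold in either direction, with medians of -0.01 and 0.13. For iloprost over IL-1β alone the count was 0 of 25, for indomethacin over vehicle 2 of 22 and for iloprost over vehicle 1 of 24, all of them higher. The shares of all genes higher and lower were 0.245% and 0.664% for indomethacin against IL-1β, 1.98% and 3.19% for iloprost over indomethacin, and 0.95% and 2.37% for iloprost over IL-1β alone. Over vehicle they were 1.32% and 0.323% with indomethacin and 2.72% and 3.34% with iloprost, so 1 or 2 list genes make counts too small to set apart from them.

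Tfpi2 was the other list gene past 2-fold in any comparison. It encodes a further inhibitor of the Kunitz type and measured 105.5 with iloprost, 136.1 with indomethacin, 124.5 with IL-1β and 63.8 with vehicle. Its ratio was 1.01 with indomethacin over vehicle and 0.74 with IL-1β over vehicle. S1pr1, a sphingosine 1-phosphate receptor through which activated protein C is known to signal in endothelium, was picked out after its values were seen. It measured 157.1 with iloprost, 80.4 with indomethacin, 169.5 with IL-1β and 87.5 with vehicle, the high and low dishes of Procr and Thbd. Its ratios were 0.73 for IL-1β over vehicle, -0.93 for indomethacin against IL-1β and 0.96 for iloprost over indomethacin, all short of 2-fold.

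The protein C cofactor gene Pros1, the thrombin receptor gene F2r and the plasminogen-binding pair Anxa2 and S100a10 were nearly level. Pros1 had signals of 273.1 with iloprost, 243.5 with indomethacin, 255.8 with IL-1β and 245.2 with vehicle. F2r measured 898.9 with iloprost, 762.1 with indomethacin, 931.3 with IL-1β and 723.3 with vehicle. The Anxa2 ratio was 0.26 with iloprost over indomethacin and -0.07 with IL-1β over vehicle. S100a10 was at -0.20 and 0.06 in the same comparisons. No ratio of these 4 genes reached 1.5-fold.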

How the data were processed

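The authors deposited an intensity for each probe set on each array, on a linear scale. Per the labels, RNA labelling followed the standard Affymetrix protocol. How probes were summarised, background-corrected and scaled is not given in the sources used here. All 4 value columns were used, and precision is limited by their number.

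Probe sets with 1 gene in the platform annotation (20380, control sets left out) named 12393 genes, of which a check by gene number against RefSeq changed 0 symbols. Signals below 37.6 were set to that floor, log2 was taken, and the probe set with the highest mean stood for its gene. Ratios were centred on the median of the 6222 genes that exceeded the floor on all arrays. Differences were counted at 2-fold in 6 comparisons, without tests.

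The genes named are the members, pathway genes past 2-fold, pathway genes named at any value, among them Pros1, F2r, S100a10 and Anxa2, and the 3 nearest in profile to members above the floor on every array with a log2 range of at least 1. Members and lists were chosen with earlier results of these data known. Scaling, floor, probe set choice and the fold threshold were varied. Scripts ran in Python 3.11.15 with pandas 2.3.3 and were tested on simulated data.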

Additional observations from a re-analysis of the deposited data

How the results depend on the processing

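No paired analysis was possible because each treatment has 1 array, and no array could be left out. Of 96 counts of the 8 genes under other settings, 93 stayed within 1.5 times the reported count, and none of the ratios at or past 2-fold changed sign under any of the scalings, floors or probe set choices tried. With counts this small, that range can admit a gene gained or lost. Within it Plau joined the genes higher over vehicle in each dish with IL-1β, at the 25th percentile floor and without a floor. Plau also joined for IL-1β over vehicle as deposited, and Serpinb2 dropped out of iloprost over vehicle at the 65th percentile floor. The counts outside that range all came from a 1.5-fold threshold, which by construction admits more genes. There F3 was counted as 1 gene higher with indomethacin than with IL-1β alone and as 1 gene lower with indomethacin than with vehicle, and 4 genes were higher with indomethacin than with vehicle (Procr, Plaur, Plat and Serpinb2). Over all genes, the counts higher and lower with IL-1β were 120 and 39, against 195 and 11 as deposited, 282 and 272 for a floor at the 25th percentile and 77 and 20 at the 65th. With indomethacin against IL-1β they were 17 and 46, against 9 and 60, 207 and 207, and 10 and 30. With iloprost over indomethacin they were 138 and 223, against 141 and 221, 369 and 457, and 86 and 162. For indomethacin over vehicle the 90 and 22 genes became 94 and 12, 254 and 221, and 64 and 3. For iloprost over IL-1β alone, 67 and 167 became 44 and 220, 290 and 357, and 33 and 122, and for iloprost over vehicle 190 and 233 became 220 and 206, 402 and 453, and 118 and 170. Without a floor, genes lower with indomethacin than with vehicle numbered 13 and genes higher with indomethacin than with IL-1β 28. At 1.5-fold the IL-1β counts were 324 and 269. The causes were not tested. Plau and the vehicle value of Serpinb2 lie near or below the floor, so their ratios rest on it.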
